A study of Mus musculus with 9 samples.

Results

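Transcripts of 10 genes of the fibroblast growth factor (FGF) system were followed in mouse retinas: the secreted ligands Fgf1, Fgf2 and Fgf9, the intracellular FGF homologous factors Fgf12, Fgf13 and Fgf14, and the receptors Fgfr1, Fgfr2, Fgfr3 and Fgfrl1. The genes were taken by symbol from the 47729 gene identifiers of the deposited count table, and each of the 10 was present. The study profiled whole retinas by bulk RNA sequencing in 9 libraries, 3 in each of 3 groups, and its title names Yap, the transcriptional coactivator of the Hippo pathway, and Müller glia in the degenerating retina. Yap CKO mice carried floxed Yap alleles (Yapflox/flox) and Rax-CreERT2, a Cre that acts in Müller cells after 4-hydroxytamoxifen. Control mice were Yapflox/flox without the Cre. Both groups were injected with 4-hydroxytamoxifen at postnatal day 10 (P10), examined at P60, and gave 1 frozen retina per library. Wild-type C57 retinas at P30, with no stated injection, came from an earlier series. All mice were on a C57Bl6/J background. For the controls, the genotype field carries the name Yap CKO but lists no Cre, so their group follows the design text. The names of both P60 groups contain the letters MNU, which the labels do not explain, and no treatment with it is described. The labels do not say whether the 3 retinas of a group came from 3 animals, so p-values measure the spread between these samples.

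FGFs are signalling proteins that bind receptor tyrosine kinases together with heparan sulfate. Bound receptors recruit adaptors such as Frs2 and switch on the Ras and MAP kinase (ERK) cascade, whose target genes include feedback inhibitors of the Sprouty, Spred and Dusp families. In the retina, Fgf2 is known as a survival factor for photoreceptors whose level rises with injury, Müller cells respond to FGF, and Fgf9 acts in retinal development. Fgf12, Fgf13 and Fgf14 are not secreted: they stay in the neuron and bind voltage-gated sodium channels. Fgfrl1 binds FGFs but has no kinase domain.

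Libraries of the C57 group held 13760765 to 16808499 counts and those of the P60 groups 34739679 to 37629264. Yap1, the deleted gene, stood at 67.4, 61.0 and 57.6 CPM (counts scaled to library size) in the controls, at 15.3, 21.5 and 24.3 CPM in the Yap CKO libraries and at 23.4, 25.1 and 30.4 CPM in C57. Retinal markers were present in every library, but the groups differed in make-up. The 12 rod markers summed to 104100 to 124300 CPM in C57, to 4274 to 22250 CPM in controls and to 1119 to 23480 CPM in Yap CKO. The 10 Müller cell markers summed to 7664 to 8180, 2837 to 3421 and 2553 to 3143 CPM in the same order, and the 8 markers of astrocytes and reactive glia to 241 to 340, 2752 to 2988 and 2943 to 3505 CPM. Yap CKO 3 stood apart, with the lowest rod markers and with 12 lens markers summing to 1320 CPM against at most 33.3 CPM elsewhere. By Y-linked and Xist transcripts the 3 control retinas were male, 1 Yap CKO retina (Yap CKO 3) and 1 C57 retina were male, and the other 4 were female. In whole retinas, fewer cells of a type and less RNA per cell cannot be told apart.

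Of the 10 members, the receptors Fgfr1 and Fgfrl1 had levels that did not overlap between any of the 3 groups. Taken by pairs of groups, such separation was common. It held for 25.1% of all genes tested between Yap CKO and control, 58.9% between control and C57 and 55.1% between Yap CKO and C57. The share of all genes with no overlap between any of the 3 groups was not counted. Fgfr1 (ENSMUSG00000031565, chromosome 8, 25513654 to 25575718, plus strand, GRCm38), the main FGF receptor tyrosine kinase by level in these retinas, was at 37.5, 30.4 and 28.3 CPM in C57, at 91.4, 96.3 and 98.7 CPM in controls and at 50.7, 62.0 and 62.2 CPM in Yap CKO. No library of one group fell within the range of another: every control lay above every Yap CKO library, and every Yap CKO library lay above C57. The lowest and highest of the 9 libraries differed 3.49-fold.

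**Figure D1:**
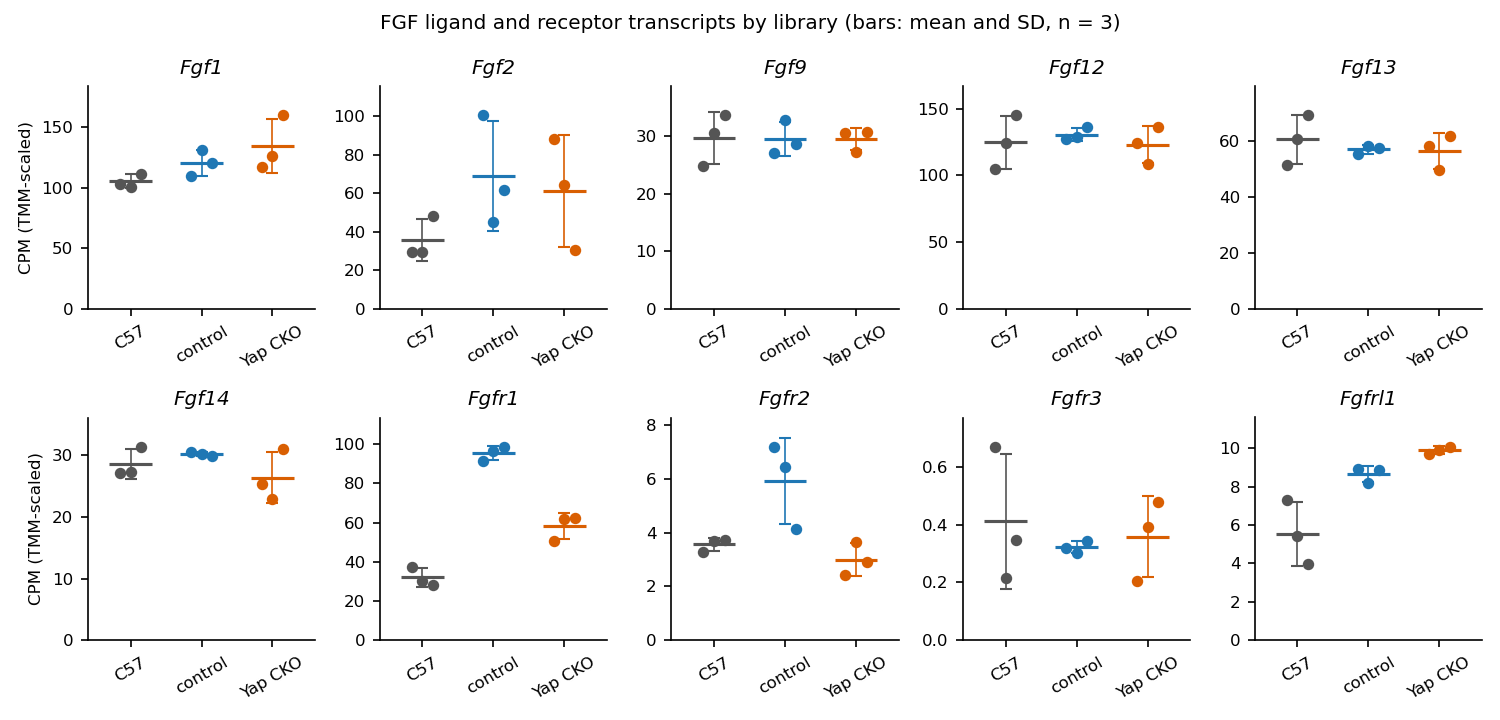
CPM of the 10 FGF ligand and receptor genes (vertical axes, TMM-scaled, each starting at 0) in the 3 C57, 3 control and 3 Yap CKO libraries, with the group mean and SD as bars. Fgfr1 separates the groups, at 28.3 to 37.5, 91.4 to 98.7 and 50.7 to 62.2 CPM, Fgf2 is scattered within both P60 groups, and Fgf9, Fgf12, Fgf13 and Fgf14 are nearly level.

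Yap CKO was compared with control to ask which transcripts depend on the Müller cell deletion of Yap at P60, although the groups also differ in the Cre allele and in sex. Fgfr1 fell 1.64-fold, from 95.5 ± 3.74 to 58.3 ± 6.57 CPM (SD, n = 3 each), with a log2 fold change of -0.71 (SE 0.09) and an adjusted p of 0.0496 by edgeR's quasi-likelihood test with Benjamini-Hochberg adjustment over all genes tested. Of the 10 members, 1 (Fgfr1) was called at an adjusted p under 0.05 in either direction, and of all 16539 genes tested 0.181% were called lower. The value sat at the threshold: the direction was kept in each of the 14 alternatives, with log2 fold changes from -0.77 to -0.62, but in 10 of them the adjusted p was 0.05005 to 0.167, among them the fits without control 1, 2 or 3 and without Yap CKO 1 or 2. Without Yap CKO 3, in the fit that called the most genes (1473), the adjusted p was 0.0144. In the authors' deposited table of 305 genes, Fgfr1 was the only one of the 10 members listed. It had a log2 fold change of -0.70 and an adjusted p of 0.00569 for the same comparison. By its name that table was cut by p-value, fold change and expression level, so a member missing from it may have failed any of these cuts. The male Yap CKO library, at 62.2 CPM, also lay below the 3 male controls.

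Fgfr2, a second receptor tyrosine kinase (ENSMUSG00000030849, chromosome 7, 130162451 to 133123350, minus strand), was far less abundant. It stood at 7.21, 6.44 and 4.15 CPM in the controls and at 2.42, 3.64 and 2.90 CPM in Yap CKO, with no overlap between the groups. The C57 libraries were at 3.27, 3.68 and 3.75 CPM. The fitted difference of Yap CKO from control was 1.98-fold, larger than that of Fgfr1, but with a wider error and below the threshold of the test (log2 fold change -0.98, SE 0.24, adjusted p = 0.115). DESeq2 called it (adjusted p = 0.00660), and so did edgeR without the filter on low counts (0.0467). Both settings called many more genes than the main fit. In the other 12 of 14 alternatives Fgfr2 was not called, with an adjusted p of up to 0.353. Control 3, at 4.15 CPM, was low within its group and close to Yap CKO 2.

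Fgfrl1, the receptor without a kinase domain (ENSMUSG00000008090, chromosome 5, 108692382 to 108706924, plus strand), lay slightly the other way. The controls were at 8.92, 8.17 and 8.86 CPM and the Yap CKO libraries at 9.68, 9.91 and 10.1 CPM, again without overlap. The difference was small and not called (log2 fold change 0.19, SE 0.10, adjusted p = 0.335). C57 libraries were lower and more scattered, at 7.29, 5.41 and 3.96 CPM. Thus 3 of the 10 members had groups that did not overlap, of which 2 were lower and 1 higher in Yap CKO, against 25.1% of all genes tested. Without adjustment 2 members, Fgfr1 and Fgfr2, had a p under 0.05, against 17.8% of all genes.

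Fgfr3, which signals through the same cascade, was near the detection limit. It had 8, 3 and 5 counts in C57, 12, 12 and 14 in controls and 8, 15 and 19 in Yap CKO, at most 0.670 CPM in any library, so differences were not detectable at this depth. The remaining receptor gene of the family, Fgfr4, was also at or below 1.22 CPM. The receptor transcripts of these retinas were thus mostly those of Fgfr1 and Fgfrl1.

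Counted per length, as CPM per kilobase of merged exons, the 4 receptors summed to 4.70 to 6.82 in C57, 13.2 to 13.6 in controls and 8.88 to 10.3 in Yap CKO. Fgfr1 made up 55.6% to 61.0% of that sum in C57, 70.1% to 73.3% in controls and 57.8% to 61.3% in Yap CKO. The share of Fgfrl1 was 30.2% to 38.4%, 22% to 24.3% and 34.8% to 39.2% in the same order. These 2 genes make up most of the sum, so the share of either falls where that of the other rises. In CPM, Fgfrl1 was itself higher in controls than in C57, with means of 8.65 and 5.55. The Fgfr1 share of the Yap CKO retinas thus overlapped that of C57, at a higher summed level. The Fgfr2 share did not overlap between C57 and Yap CKO: it was 4.6% to 7.7% in C57, 2.9% to 5.3% in controls and 2.6% to 3.4% in Yap CKO. Fgfr3 gave at most 1.4% in any library.

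Of the receptor genes, Fgfr2 and Fgfrl1 had a promoter window in RefSeq (GRCm38.p6) free of annotated exons, and their sequences are shown because the Yap CKO libraries of these receptors lay on opposite sides of the controls. Each window is the stretch just before a start annotated in RefSeq, printed 5′ to 3′ on the gene's strand. For both windows, the bases after that start were found in no GENCODE M21 transcript of the gene. Both windows also lie inside the gene spans given above, so they may not be the promoters of the counted transcripts. Fgfr2 lies at chr7:130266809-130267058 on the minus strand and Fgfrl1 at chr5:108693979-108694228 on the plus strand. Capitals mark a match to the ETS core.
Fgfr2: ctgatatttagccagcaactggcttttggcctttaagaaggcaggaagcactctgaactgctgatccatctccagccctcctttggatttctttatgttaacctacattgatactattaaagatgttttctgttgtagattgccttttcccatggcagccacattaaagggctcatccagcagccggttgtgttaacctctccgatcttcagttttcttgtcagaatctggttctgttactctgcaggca
Fgfrl1: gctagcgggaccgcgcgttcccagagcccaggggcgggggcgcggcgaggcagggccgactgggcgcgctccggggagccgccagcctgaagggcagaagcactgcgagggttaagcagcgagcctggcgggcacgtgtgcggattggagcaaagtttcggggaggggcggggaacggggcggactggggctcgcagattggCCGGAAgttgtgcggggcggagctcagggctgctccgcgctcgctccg
The windows differ in composition. The Fgfr2 window had 44.0% G and C with 2 CpG dinucleotides, and the Fgfrl1 window 73.6% with 30, beside medians of 52.4% and 6 over all 32817 windows of the same length. Both strands were searched for the TEAD core GGAATG (the DNA partners of Yap), the AP-1 site TGANTCA and the ETS core CCGGAA (a family downstream of ERK), which occurred in 12.6%, 6.75% and 12% of all windows. The Fgfrl1 window held 1 ETS core, beginning 48 bases before the start, and the Fgfr2 window held none of the 3 motifs. Among the 15 windows of 8 members, a Fgf12 window held all 3 motifs and a Fgf13 window an AP-1 site, and these neuronal factors did not pass the test in any comparison. A match of letters is a description and not evidence of binding.

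The secreted ligands did not separate Yap CKO from control. Fgf2, the injury-responsive ligand (ENSMUSG00000037225, chromosome 3, 37348346 to 37410108, plus strand), was at 100.5, 44.8 and 61.6 CPM in controls and at 88.3, 64.1 and 30.4 CPM in Yap CKO, so the groups overlapped over most of their range. Its log2 fold change of -0.17 had an SE of 0.50 (adjusted p = 0.908), the widest error of the 10 members. The sign turned to 0.19 without control 1 and to 0.15 without Yap CKO 3.

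Fgf2 instead differed between libraries of 1 group. Among the 6 P60 libraries it was highest in control 1 and Yap CKO 1, which also had the highest rod marker levels (mean log2(CPM + 1) over 12 genes of 9.61 and 9.71). It was lowest in Yap CKO 3, where rod markers were lowest (5.78), and control 2 ranked next to last for both. Apart from an exchange of the first 2 places, the orders of the 6 libraries were the same. The C57 libraries do not extend this order: their rod level was the highest, at 11.98 to 12.2, and their Fgf2 was at 29.5, 29.3 and 48.0 CPM. Fgfr1 did not follow the rod order, ranking control 3, control 2 and control 1 above the 3 Yap CKO libraries. What part the loss of rods or the lens transcripts of Yap CKO 3 have in the Fgf2 values was not tested.

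**Figure D2:**
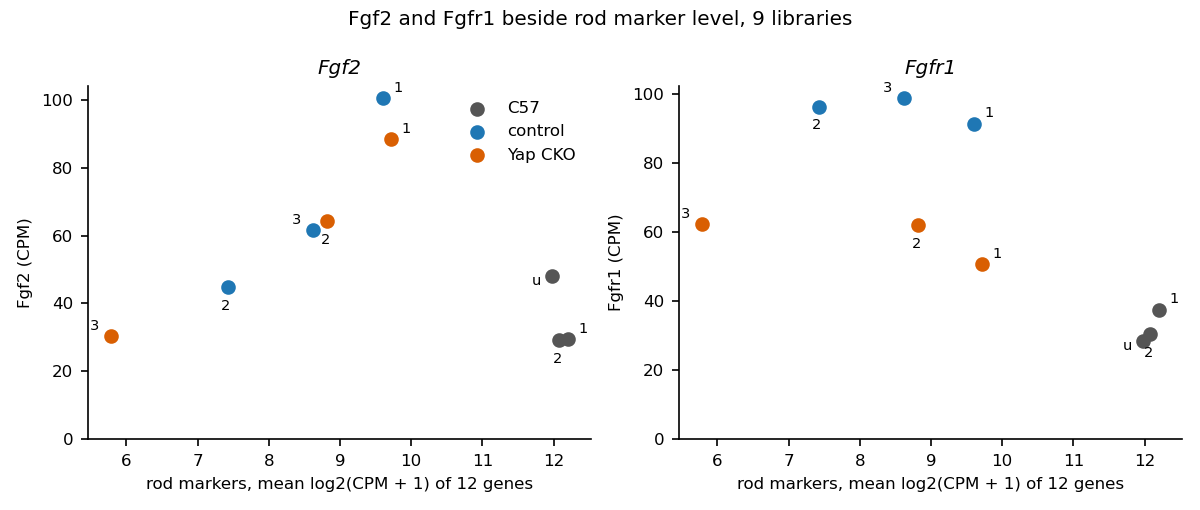
Fgf2 and Fgfr1 (CPM, vertical axes) against the rod marker level (mean log2(CPM + 1) of 12 genes, horizontal axis) in the 9 libraries, labelled by replicate (u, the unnumbered C57 library). Within P60, Fgf2 goes from 30.4 CPM at the lowest rod level to 88.3 and 100.5 CPM at the highest, whereas Fgfr1 splits by group at every rod level.

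Fgf1, a ligand that binds all FGF receptors and is abundant in neurons, was at 109.9, 132 and 120.5 CPM in controls and at 118, 126 and 160.2 CPM in Yap CKO. The highest value was that of Yap CKO 3, the library with lens transcripts, and the groups overlapped (log2 fold change 0.16, SE 0.13, adjusted p = 0.562). Fgf9 was flat, at 27.0, 32.9 and 28.7 CPM against 30.5, 27.2 and 30.7 CPM, with a fitted log2 fold change of -0.00295 (SE 0.10). These ligands were thus steady where Fgf2 was not: over the 9 libraries, the highest exceeded the lowest 1.59-fold for Fgf1 and 1.36-fold for Fgf9, against 3.43-fold for Fgf2. Fgf1 made up 49.4% to 72.6% of the 3 ligands per length and Fgf2 11.1% to 36.4%.

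The FGF homologous factors, which modulate sodium channels in neurons, varied little. Fgf12 ranged from 104.8 to 145 CPM over the 9 libraries, Fgf13 from 49.6 to 69.4 CPM and Fgf14 from 22.9 to 31.4 CPM, spans of 1.38-fold, 1.40-fold and 1.37-fold, beside 1.36-fold for Fgf9. Against control, their log2 fold changes in Yap CKO were -0.08 (SE 0.09), -0.02 (SE 0.09) and -0.19 (SE 0.11), with adjusted p of 0.682, 0.956 and 0.409. Without Yap CKO 3, in which it was highest of its group, Fgf14 was called lower (log2 fold change -0.33, adjusted p = 0.0352). That fit called 1473 genes, the most of any alternative, and Fgf14 was not called in the other 13. Fgf11, the remaining gene of this type, was at 73.3 to 93.0 CPM and was not called either. Fgf13 is X-linked, and its values in the female libraries (51.6 and 69.4 CPM in C57, 49.6 and 58.2 CPM in Yap CKO) bracketed those of the males (55.4 to 61.9 CPM). Of the 8 tested sodium channel subunits that these proteins bind or accompany, 0 were called in this comparison by edgeR, DESeq2 or limma. By edgeR, 3 of them had an unadjusted p under 0.05, beside 17.8% of all genes. For Scn2a, an axonal sodium channel, the adjusted p was 0.156 (log2 fold change -0.21). Against C57, 2 of the 8 subunits were higher in controls, among them Scn3a (0.61, SE 0.16, adjusted p = 0.0168), and 0 were lower. Of all genes tested, 23.1% were called higher and 22.4% lower in that comparison.

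**Figure D3:**
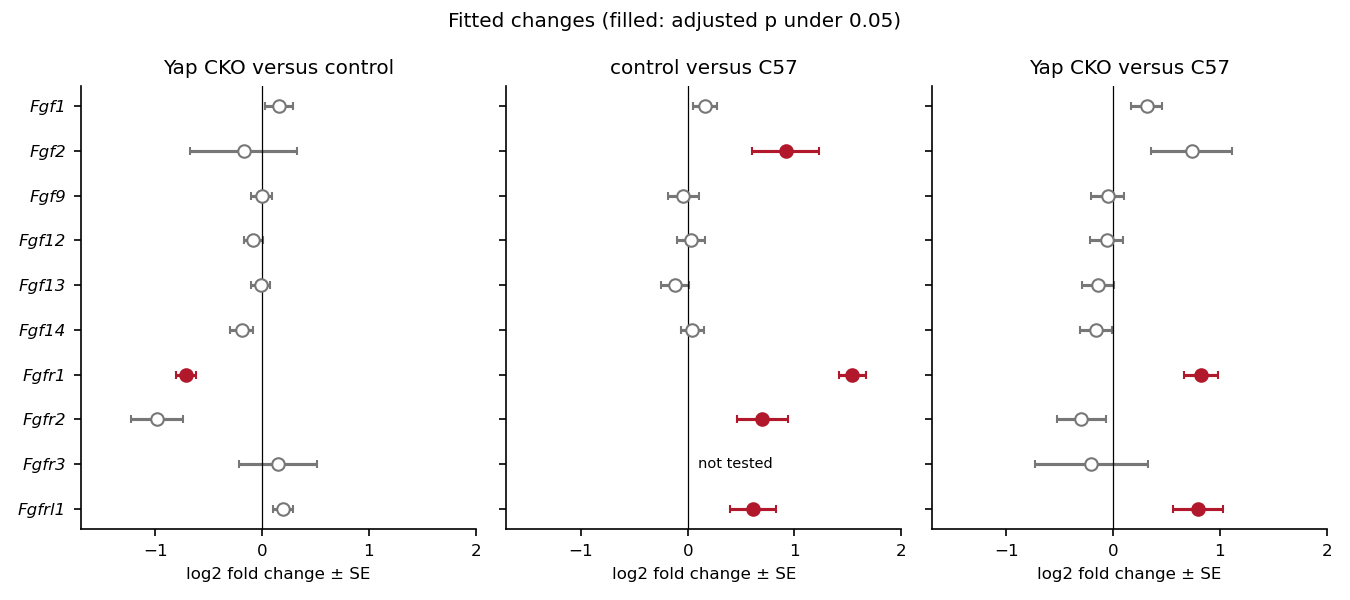
Log2 fold change (horizontal axis, with SE) of the 10 members in the 3 comparisons, filled where the adjusted p was under 0.05. Yap CKO against control shows 1 filled point, Fgfr1 at -0.71, control against C57 shows 4 and Yap CKO against C57 shows 2.

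The comparisons with C57 set P60 retinas with floxed Yap and 4-hydroxytamoxifen beside younger wild-type retinas of another series, at lower depth. Age, alleles, injection, the unexplained MNU and source cannot be told apart. For controls this holds for sex too: the 3 controls were male, while C57 and Yap CKO each had 1 male and 2 female libraries. Both comparisons use the same C57 libraries, so their values are given side by side. In controls, 4 of the 9 members tested were higher than in C57 and 0 were lower, beside 23.1% of all genes called higher and 22.4% called lower. The 4 were Fgfr1, Fgfr2, Fgfrl1 and Fgf2, and Fgfr3 was left out by the filter. In Yap CKO, 2 of 10 were higher, Fgfr1 and Fgfrl1, and 0 lower, beside 20.3% and 20.2% of all genes. A count of 0 lower was also given by DESeq2 and limma, and by none of the 3 tools was a member lower at an unadjusted p under 0.05.

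Fgfr1 was called higher than C57 in both P60 groups. It rose 2.92-fold in controls from a C57 mean of 32.1 ± 4.798 CPM (SD over 3 libraries), with a log2 fold change of 1.54 (SE 0.13, adjusted p = 0.000113), and 1.77-fold in Yap CKO (log2 fold change 0.82, SE 0.16, adjusted p = 0.00400). Both calls were kept in each of the 14 alternatives tried for each comparison. Fgfrl1 rose 1.53-fold in controls (log2 fold change 0.62, SE 0.22, adjusted p = 0.0487) and 1.74-fold in Yap CKO (0.80, SE 0.23, adjusted p = 0.0252). Fgfr2 rose 1.62-fold in controls (0.70, SE 0.24, adjusted p = 0.0441), while in Yap CKO it was not called and its libraries overlapped those of C57 (-0.30, SE 0.23, adjusted p = 0.320). Groups did not overlap for 3 of the 9 members tested in controls and for 3 of 10 in Yap CKO, against 58.9% and 55.1% of all genes. Both calls in controls were lost when any 1 of 5 libraries was left out. For Fgfr2 the adjusted p was then 0.0665 to 0.134, and it stayed called without control 3, whereas for Fgfrl1 it was 0.0810 to 0.142, and it stayed called without C57 1. In Yap CKO, Fgfrl1 was likewise lost (adjusted p of 0.0550 to 0.0884) without any 1 library other than C57 1.

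Fgf2 rose 1.89-fold in controls from 35.6 ± 10.7 to 69.0 ± 28.5 CPM (SD over 3 libraries each), with a log2 fold change of 0.92 (SE 0.31, adjusted p = 0.0449), although control 2 at 44.8 CPM lay below the unnumbered C57 library at 48.0 CPM. The call was lost in 9 of 14 alternatives, and without control 1 the log2 fold change was 0.55 (adjusted p = 0.137). In Yap CKO it was not called (0.73, SE 0.38, adjusted p = 0.161), but without Yap CKO 3 it was (1.07, adjusted p = 0.0181). That was the only 1 of 14 alternatives to call it. Fgf1 was above C57 in each Yap CKO library (101 to 112 CPM in C57) without passing the test (0.31, SE 0.15, adjusted p = 0.117). Fgf9, Fgf12, Fgf13 and Fgf14 had log2 fold changes between -0.16 and 0.04 in both comparisons.

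These changes came with a changed make-up of the tissue. Against C57, 12 of 12 rod markers were called lower in controls (median log2 fold change -3.18), beside 22.4% of all genes. In Yap CKO 7 of 12 were called by edgeR, 4 by limma and 12 by DESeq2, and the 12 had no overlap with C57 and a median of -3.23. Of all genes, edgeR called 20.2% lower in Yap CKO, and 55.1% had no overlap with C57. In addition, 8 of 10 Müller cell markers were lower and 1 (Sox9) higher in both, and 7 of 8 markers of reactive glia were higher in both. The shares of all genes called higher were 23.1% in controls and 20.3% in Yap CKO. Sox9, a transcription factor of Müller cells named here after its value was seen, was at 13.9 to 19.9 CPM in C57, 50.3 to 52.8 CPM in controls and 35.1 to 48.3 CPM in Yap CKO. Between Yap CKO and control, 12 markers of ciliary epithelium and connective tissue summed to 132.8 to 251 CPM in controls and to 102.4 to 125 CPM in Yap CKO. Of the 11 tested, 0 were called by edgeR or limma, and DESeq2 called 5 lower and 1 higher. By edgeR, 6 had an unadjusted p under 0.05, 5 lower and 1 higher, beside 17.8% of all genes. The higher one, Col3a1, was at 0.830 to 1.31 CPM in controls and 1.53 to 3.98 CPM in Yap CKO. The order of the libraries in this sum was that of Fgfr2 in the controls (251, 228 and 132.8 CPM beside 7.21, 6.44 and 4.15 CPM), but not in Yap CKO (102.4, 110.3 and 125 CPM beside 2.42, 3.64 and 2.90 CPM) or C57. Among its 3 most abundant markers, Optc was at 77, 82.2 and 32.6 CPM in controls and 19.4, 15.01 and 29.5 CPM in Yap CKO, Col1a2 at 18.0 to 55.0 against 7.93 to 11.3 CPM, and Slc4a2 at 38.5 to 41.7 against 37.0 to 41.6 CPM, while Lum was at most 0.555 CPM in any library. Glial markers were set beside them for Yap CKO against control. Of the 8 reactive glia markers, 0 were called by edgeR or limma, and DESeq2 called 2 higher and 2 lower. Of these 8, 6 did not overlap and 5 had an unadjusted p under 0.05 by edgeR (3 higher, 2 lower). Over all genes these shares were 25.1% and 17.8%, and DESeq2 called many more genes than edgeR. Named after their values were seen, Gfap was at 239 to 359.6 CPM in controls and 559 to 683 CPM in Yap CKO, Cd44 at 430.0 to 449.8 against 259.6 to 325 CPM, and Aldh1l1 at 75.2 to 113 against 44.3 to 73.6 CPM. The 10 Müller cell markers had negative log2 fold changes (median -0.12), with 0 called by edgeR or limma and 1 called lower by DESeq2. By edgeR, 2 of them had an unadjusted p under 0.05, beside 17.8% of all genes. The part of these cells in the receptor values was not tested.

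Levels of different members are compared per length. In C57, Fgf12 and Fgf1 led with 20.1 ± 3.25 and 19.3 ± 1.06 CPM per kilobase (SD, n = 3), and their ranges overlapped. Fgf13 followed at 15.1 ± 2.21. Fgf14, Fgf9 and Fgf2 formed a middle class at 6.85, 6.38 and 5.25 whose neighbours overlapped. Below them, each apart from the next, came Fgfr1 at 3.25, Fgfrl1 at 1.996, Fgfr2 at 0.345 and Fgfr3 at 0.0575. The ligands and homologous factors were thus above all receptors at P30.

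In controls, Fgfr1 moved up the order to 9.67 ± 0.379 CPM per kilobase, beside Fgf2 at 10.2 ± 4.21 with which it overlapped, and above Fgf14 (7.22) and Fgf9 (6.35) without overlap. In Yap CKO it was at 5.91 ± 0.666, and its range overlapped that of Fgf14 (6.32), while Fgf9 and Fgf14 also overlapped. By mean, the order of the leading genes (Fgf1, Fgf12, Fgf13) and of the last (Fgfrl1, Fgfr2, Fgfr3) was the same in both P60 groups. In each of these groups, however, the range of Fgf1 overlapped that of Fgf12, and the range of Fgf13 that of Fgf2.

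**Figure D4:**
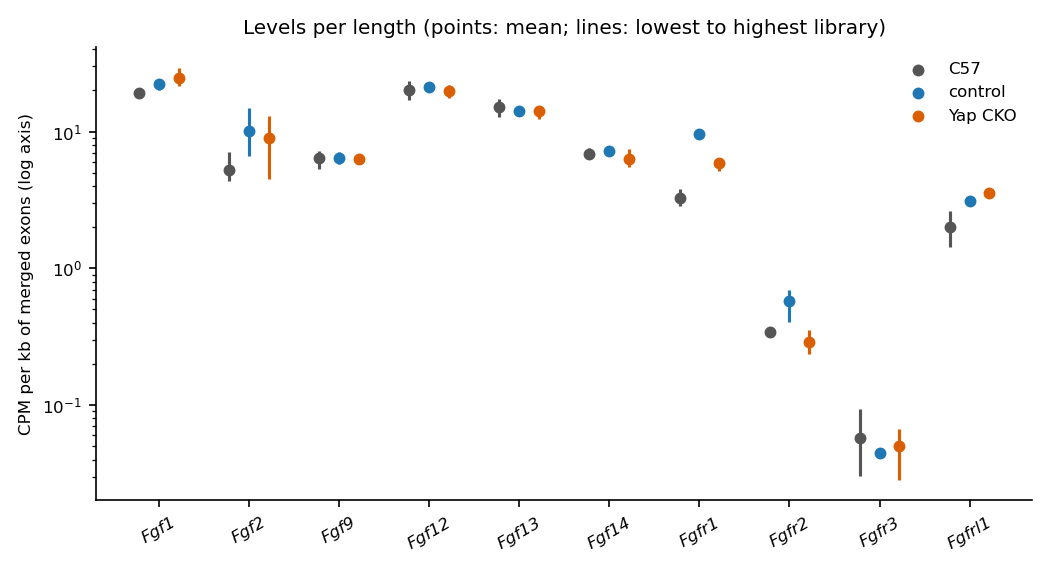
Level per length of each member (CPM per kilobase of merged exons, log axis) in the 3 groups, with points for means and lines from the lowest to the highest of 3 libraries. Fgfr1 stands at 3.25 in C57, 9.67 in controls and 5.91 in Yap CKO, and Fgfr3 stays below 0.1 throughout.

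Genes whose pattern over the 9 libraries was most like that of a member were sought among 11733 genes with a mean of at least 5 CPM, by the root mean square difference of centred log2(CPM + 1) values. For Fgfr1, whose own spread by this measure was 0.648, the nearest were Irak2 at 0.0996, Mtmr10 at 0.138 and Spry2 at 0.164. Irak2, a kinase downstream of Toll-like and interleukin-1 receptors, was at 12.2 to 15.2 CPM in C57, 41.3 to 44.8 in controls and 21.02 to 23.4 in Yap CKO. For Fgf2 (own spread 0.622) the nearest were Antxr2 at 0.114, Tnip2 at 0.187 and Fosb at 0.245. Antxr2, an anthrax toxin receptor, stood at 40.1, 18.1 and 27.1 CPM in controls and 39.2, 30.9 and 12.9 CPM in Yap CKO, the order of the libraries seen for Fgf2 in each group. For Fgfr2 (own spread 0.387) they were Mgst1 at 0.206, Notch2 at 0.208 and Pnrc2 at 0.214, and for Fgfrl1 (own spread 0.373) Exosc4 at 0.0304, Tbl3 at 0.0358 and Irf2bp1 at 0.0611. These are descriptions over 9 libraries that share their groups.

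Downstream of the receptors, 14 response and feedback genes of the FGF and ERK pathway were tested. In Yap CKO against control, 1 was called lower and 0 higher by edgeR and by limma, and 3 lower by DESeq2. By edgeR, 7 of the 14 had an unadjusted p under 0.05, 6 lower and 1 higher, beside 17.8% of all genes, and the median log2 fold change was -0.26 beside 0.01 over all genes. The one called was Fosl1, an AP-1 transcription factor induced by ERK, which fell from 152 to 179 CPM in controls to 87.1 to 94.1 CPM (log2 fold change -0.86, SE 0.08, adjusted p = 0.0188). That call was lost in 5 of 14 alternatives, with an adjusted p of up to 0.103. Spry2, a feedback inhibitor of receptor tyrosine kinase signalling, was at 150.3, 201 and 158 CPM in controls and 116, 129 and 113 CPM in Yap CKO without overlap, and did not pass (log2 fold change -0.51, SE 0.12, adjusted p = 0.112).

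Against C57, 8 of the 14 response genes were higher and 3 lower in controls (median log2 fold change 0.69 beside 0.03 over all genes). In Yap CKO 7 were higher and 3 lower (0.58 beside 0.02). Of all genes, 23.1% were called higher and 22.4% lower in controls, and 20.3% and 20.2% in Yap CKO. Dusp6, a phosphatase that inactivates ERK, was at 15.9 to 21.9 CPM in C57 and rose to 49.2 to 68.2 CPM in controls (log2 fold change 1.56, SE 0.18, adjusted p = 0.000415) and to 40.1 to 49.8 CPM in Yap CKO (1.23, SE 0.16, adjusted p = 0.000718). Spry2 rose likewise (1.55, SE 0.15, adjusted p = 0.000192, and 1.03, SE 0.13, adjusted p = 0.000670). Fosl1 had 3, 2 and 0 counts in C57 and 3418 to 7106 counts in the P60 libraries. The 3 lower genes, named after their values were seen, were the same in both groups: the ETS transcription factors Etv1 and Etv5 and the phosphatase Dusp4. Etv5, often used as a readout of FGF signalling, was at 63.9 to 80.8 CPM in C57, 37.9 to 48.5 CPM in controls and 41.6 to 52.6 CPM in Yap CKO. The list thus did not move one way: Spry2, Dusp6 and Fosl1 rose in both groups while Etv1, Etv5 and Dusp4 fell.

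**Figure D5:**
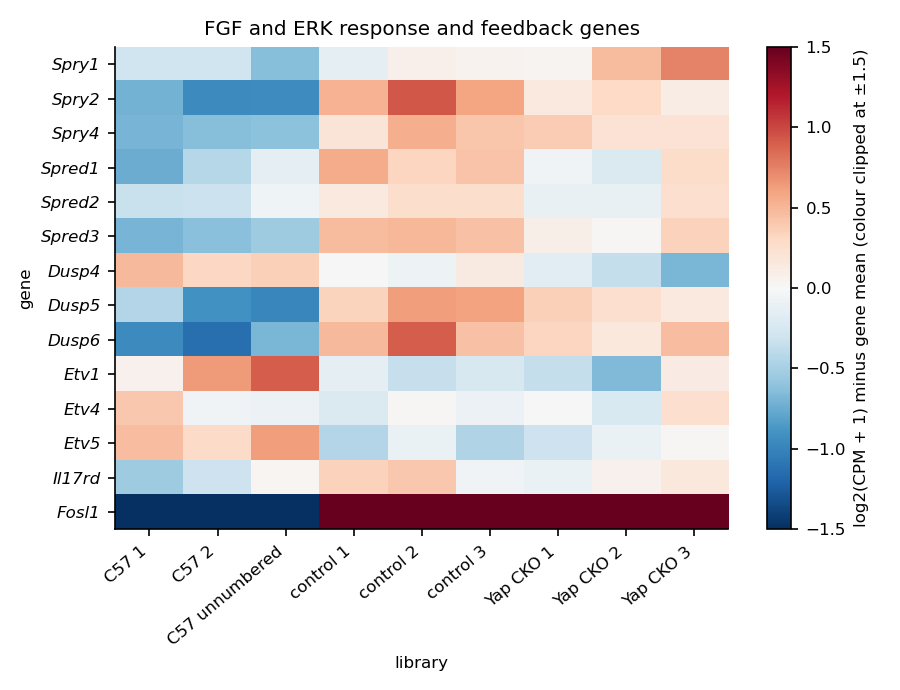
Centred log2(CPM + 1) of 14 FGF and ERK response and feedback genes (rows) in the 9 libraries (columns), with colour clipped at ±1.5. Spry2, Dusp6 and Fosl1 are lowest in C57, where Etv5 and Dusp4 are highest.

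Heparan sulfate proteoglycans, which present FGFs to their receptors, and the enzymes that build and trim their chains numbered 22 tested genes. In Yap CKO against control 0 were called by edgeR or limma and 2 by DESeq2, which called many more genes than edgeR in this comparison. By edgeR, 8 had an unadjusted p under 0.05, each of them lower, beside 17.8% of all genes. The median log2 fold change was -0.17, beside 0.01 over all genes. Gpc6, a cell-surface glypican, had the smallest p, at 32.1 to 36.6 CPM in controls and 21.1 to 25.9 CPM in Yap CKO (log2 fold change -0.55, SE 0.09, adjusted p = 0.0646), followed by the chain-initiating enzyme Extl3 (-0.32, SE 0.07, adjusted p = 0.0949). Against C57, 10 were higher and 4 lower in controls, beside 23.1% and 22.4% of all genes. In Yap CKO 5 were higher and 4 lower, beside 20.3% and 20.2% of all genes. The syndecans Sdc1 and Sdc4 rose in both, Sdc4 from 40.1 to 47.8 CPM in C57 to 142 to 185 CPM in controls (1.82, SE 0.14, adjusted p = 7.52e-05) and 104.8 to 129.7 CPM in Yap CKO (1.42, SE 0.14, adjusted p = 0.000204). Ext1, a polymerase of the heparan sulfate chain, fell in both, from 88.9 to 103 CPM to 30.2 to 36.4 CPM in controls (-1.60, SE 0.12, adjusted p = 6.75e-05) and 27.6 to 31.2 CPM in Yap CKO.

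Of 19 adaptors and kinases between receptor and ERK, 0 were called between Yap CKO and control by edgeR or limma. DESeq2, which called many more genes than edgeR in this comparison, called 3. By edgeR, 7 of the 19 had an unadjusted p under 0.05, beside 17.8% of all genes. The smallest p values were those of Nras (log2 fold change -0.37, adjusted p = 0.106) and Hras (0.30, adjusted p = 0.118), small GTPases of the cascade, which lay on opposite sides. Against C57, 5 were higher and 0 lower in controls, beside 23.1% and 22.4% of all genes. In Yap CKO 6 were higher and 1 lower, beside 20.3% and 20.2% of all genes. Shc1, an adaptor of activated receptors, rose from 7.91 to 9.72 CPM in C57 to 21.6 to 24.1 CPM in controls (1.32, SE 0.13, adjusted p = 0.000229) and 16.0 to 19.4 CPM in Yap CKO (0.96, SE 0.16, adjusted p = 0.00250). Nras rose in both as well (1.31 and 0.93, adjusted p = 0.000702 and 0.00483).

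The rest of the family was low. Of 16 other FGF ligand genes, 7 passed the filter, and 0 of these were called in any comparison by edgeR, DESeq2 or limma, with 0 at an unadjusted p under 0.05 by edgeR. Besides Fgf11 the highest was Fgf10, at 3.28 to 6.16 CPM. Of 9 other receptors and FGF binding proteins, 0 of 8 tested were called in Yap CKO against control. By edgeR, 1 had an unadjusted p under 0.05, beside 17.8% of all genes. Flrt3, a membrane protein that binds Fgfr1, was at 25.5 to 29.1 CPM in C57 and rose to 48.8 to 51.9 CPM in controls (0.84, SE 0.11, adjusted p = 0.000610) and 45.4 to 59.3 CPM in Yap CKO (0.82, SE 0.15, adjusted p = 0.00359). For these, 3 of 7 tested were higher than C57 in each P60 group, beside 23.1% of all genes in controls and 20.3% in Yap CKO.

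Several members share exonic bases with another gene, and the strand setting of the authors' counting is not given in the sources used here. Nudt6, on the opposite strand, covers 640 bases or 9.44% of the exons of Fgf2. It was at 1.81 to 2.68 CPM in C57, 3.57 to 4.51 CPM in controls and 2.24 to 5.63 CPM in Yap CKO, and rose in controls against C57 (0.82, SE 0.21, adjusted p = 0.0156), and without a known strand setting the reads of the shared bases cannot be told apart. The Fgfr2 model shares 314 bases with Ctbp2 on the same strand, whose transcripts were far more abundant at 153.5 to 309.8 CPM and were not called in any comparison. Gm16159, opposite Fgfr1, had no count in any library.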

How the data were processed

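Bulk RNA sequencing of 9 mouse retina libraries was used, from a directional protocol per the labels. HISAT2 2.1.0, featureCounts, edgeR and the build GRCm38 are listed in the submitters' processing notes. The authors deposited whole-number read counts per gene, not normalized, for 47729 identifiers, of which 47224 had a symbol. The authors' deposited table of 305 genes gives log2 fold changes, p-values and adjusted p-values. Not used were its 9 columns of values per library and 8 of group means. One C57 column, here the unnumbered library, matches no sample number and was kept by its group name. Gene positions and exon lengths are from GENCODE M21.

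Each comparison was fitted on its 6 libraries with edgeR 4.0.16 (R 4.3.3): filterByExpr (minimum count 10, minimum total 15), TMM scaling, robust quasi-likelihood F-tests and Benjamini-Hochberg adjustment over all genes tested, threshold 0.05. Every adjusted p is from this test unless another tool is named. CPM values are TMM-scaled over the 9 libraries. The fit was tested on simulated counts. Alternatives were RLE scaling, no filter, 1 CPM in 3 libraries, DESeq2 1.42.0, limma 3.58.1 (voom), bias-adjusted deviances, a fit of all 9 libraries, thinning of P60 libraries, a replicate block and leaving out each library. Members, lists and tests were chosen with earlier results of these data known. Named from the other lists are genes among the 4 called with the smallest p in a comparison, or the 2 smallest where none was called. Library pairs within a group differed by more than sampling noise.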

Additional observations from a re-analysis of the deposited data

How the results depend on the processing

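Between Yap CKO and control, 33 genes and 1 member were called. The alternatives gave 15 genes and 0 members with RLE scaling, 343 and 2 without a filter, 15 and 0 with 1 CPM in 3 libraries, 919 and 2 with DESeq2, 16 and 0 with limma, 15 and 0 with bias-adjusted deviances, 60 and 0 with all 9 libraries in one fit. Leaving out 1 library gave 0 to 1473 genes (the highest without Yap CKO 3) and 0 to 2 members. The replicate block gave 45 genes and 1 member (Fgfr1, adjusted p = 0.0275). Deviations of same-numbered libraries correlated for number 1 (0.623) but not for numbers 2 and 3 (-0.146 and 0.006), so the numbers were not taken as pairs. In control against C57 the 4 members called became 2 with RLE scaling, 2 with limma, 2 with thinned P60 libraries and 1 to 2 without 1 library. In Yap CKO against C57, leaving out 1 library gave 3905 to 8013 genes and 1 to 2 members.

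Signs turned for Fgf9, which lay near 0: between Yap CKO and control to 0.000849 with 1 CPM in 3 libraries, 0.000836 with limma, 0.00247 in the fit of 9 libraries and 0.00105 with the replicate block, in control against C57 to 0.00437 without a filter and 0.00139 after thinning, and in Yap CKO against C57 to 0.00772 without a filter. Leaving out 1 library gave log2 fold changes of both signs, none called, for Fgf2 (-0.54 to 0.19), Fgf9 (-0.0725 to 0.0846), Fgf13 (-0.0859 to 0.0615) and Fgfr3 (-0.12 to 0.43) between Yap CKO and control, Fgf9 (-0.15 to 0.0630) and Fgf12 (-0.0768 to 0.16) in control against C57, and Fgf9 (-0.17 to 0.0443), Fgf12 (-0.18 to 0.0591) and Fgfr3 (-0.52 to 0.29) in Yap CKO against C57. Fgfr1 kept its direction in every alternative of the 3 comparisons. The cause of these shifts was not tested. Depth limits Fgfr3 and, in C57, Fgfr2 with 39 to 54 counts and Fosl1.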
